A study of Mus musculus with 12 samples.

Results

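The 10 genes described here encode the surface antigens by which mouse marrow stem and progenitor cells are commonly sorted: Kit, Ly6a (Sca-1), Cd34, Fcgr2b and Fcgr3 (CD32b and CD16), Slamf1 (CD150), Cd48, Eng (CD105), Procr (EPCR) and Ly6c2. They were chosen by symbol, for what the antigens are used for, and all 10 were among the 24107 genes of the expression table. The question asked of them was how far their RNA matched the sorting pattern of a megakaryocyte-erythroid progenitor (MEP), the bipotent precursor of red cells and platelets, in normal MEPs and in MEPs from a Prdm16s leukemia. RNA was measured and surface protein was not, and the sources used here do not name the antibodies of the MEP gate.

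In the usual scheme, lineage antigens and Ly6a exclude mature and multipotent cells, and Kit keeps the progenitors. Cd34 and the low-affinity Fc gamma receptors then split those progenitors: granulocyte-monocyte progenitors carry both, common myeloid progenitors carry Cd34 with little Fc receptor, and MEPs carry neither. A second scheme uses Slamf1 and Cd48 to separate stem cells from later progenitors, and Eng with Slamf1 to order megakaryocytic and erythroid precursors. Procr marks the most immature stem cells, and Ly6c2, part of the Ly-6C antigen, is abundant in monocytes and in the granulocytic line.

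Libraries came from C57BL/6 mice in 4 groups of 3. Control MEPs (Ctrl-MEP) and whole bone marrow (Ctrl-Bulk) were taken from wild-type mice. Leukemic MEPs (L-MEP) and GFP+ leukemic marrow cells (Prdm16s-Bulk) carried the Prdm16s genotype and were taken from recipient mice that had developed leukemia; Prdm16s is the usual name of the short form of the transcription factor Prdm16. Both Prdm16s groups therefore differ from their controls in genotype, leukemia and life in a recipient at once, these cannot be told apart, and the marrow controls were not selected for GFP. Whether replicate libraries represent different mice is not stated in the labels, and each p-value measures only the spread between these libraries. In these bulk samples, fewer cells carrying an antigen and less of its RNA per cell cannot be told apart.

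Values are FPKM, fragments scaled to transcript length and library depth. Between 571668 and 9708516 reads in genes were recovered for each library. The shallowest were L-MEP replicate 3, at 571668 reads, and Prdm16s-Bulk replicate 2, at 1149696. In log2 values of the tested genes, Prdm16s-Bulk replicate 3 correlated with replicates 1 and 2 of its group at r = 0.917 and 0.904. Those 2 libraries correlated with each other at 0.967. The library that stood furthest apart was L-MEP replicate 3. Over the tested genes its log2 values correlated with the other L-MEP libraries at r = 0.806 and 0.794, whereas those correlated with each other at 0.966, and with the Prdm16s-Bulk libraries it correlated at 0.871 to 0.904. Its 11 MEP marker genes summed to 622 FPKM against 6959 and 5768 in L-MEP replicates 1 and 2 and 6728 to 8075 in Ctrl-MEP. The near sums hide opposite changes: most of the sum was Pf4, a platelet chemokine, in L-MEP replicates 1 and 2 (5067 and 4225 FPKM, against 1.83 to 102 in Ctrl-MEP) and Car1, an erythroid carbonic anhydrase, in Ctrl-MEP (5219 to 6032 FPKM, against 732 and 684), both named after their values were seen. Of the 11 markers 4 were higher and 4 lower in L-MEP than in Ctrl-MEP (limma), and 5 and 2 without L-MEP replicate 3, where 13.7% of all tested genes were higher and 12.3% lower with it and 15.1% and 12.3% without it. Its 5 primary granule markers summed to 22897 FPKM against 576 and 811, and its 8 mature neutrophil markers to 71993 against 490 and 1702. Gata1, the erythro-megakaryocytic transcription factor, stood at 37.7 FPKM there against 242 and 210, and Klf1, its erythroid partner, at 41.5 against 278 and 213. Mpo, the granule myeloperoxidase, stood at 7897 against 167 and 150. Its Prdm16 level, 14.1 FPKM, lay between those of the other L-MEP libraries, and the group stood at 11.9 ± 4.88 FPKM (SD, n = 3) against 0.556 ± 0.246 in Ctrl-MEP. Differences that this library enters are given below with and without it; the other comparisons use it only for the shared spread. Replicates 1 and 2 of both Prdm16s groups also had Xist at 39.2 to 57.1 FPKM and Ddx3y at 0 to 0.392. The other 8 libraries had Xist at 0 to 0.0904 and Ddx3y at 10.3 to 27.6. Without L-MEP replicate 3, all L-MEP libraries therefore differed from all Ctrl-MEP libraries in these sex-linked genes. In that comparison this difference cannot be told apart from those of genotype, leukemia and life in a recipient. The part of the sex-linked difference in the other results was not tested.

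Several members lie close together or share sequence, which bears on how far their reads can be told apart. On GRCm38.p6, Fcgr2b (chr1:170960558-170976071) and Fcgr3 (chr1:171051169-171065915) are 75097 bases apart, and Cd48 (chr1:171681245-171705258) and Slamf1 (chr1:171767131-171801184) lie 61872 bases apart in the SLAM cluster. Ly6a (chr15:74994877-74998031) and Ly6c2 (chr15:75108161-75112066) belong to the Ly6 cluster, with Ly6c1 (chr15:75044018-75048920) between them. Kit (chr5:75574987-75656722), Cd34 (chr1:194938821-194961292), Eng (chr2:32646595-32682669) and Procr (chr2:155751125-155755478) stand alone. Of the 50-base stretches in the annotated transcripts of each gene, 10.2% in Fcgr3, 6.72% in Fcgr2b, 19.0% in Ly6a and 31.2% in Ly6c2 also occurred in another gene, and none did in the other 6 members. Reads from such stretches could be split or dropped, and the authors' way of counting them was not stated in the labels. The longest coding stretch common to Fcgr2b and Fcgr3 is shown because antibodies and reads alike can fail to separate this pair; capitals mark the 129 shared bases, and the lower-case ends belong to each gene (GENCODE M21 transcripts, 5′ to 3′).
Fcgr2b: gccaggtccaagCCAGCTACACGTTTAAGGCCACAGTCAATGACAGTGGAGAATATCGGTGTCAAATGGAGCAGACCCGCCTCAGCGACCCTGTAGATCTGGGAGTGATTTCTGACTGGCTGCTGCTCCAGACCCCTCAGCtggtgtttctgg
Fcgr3: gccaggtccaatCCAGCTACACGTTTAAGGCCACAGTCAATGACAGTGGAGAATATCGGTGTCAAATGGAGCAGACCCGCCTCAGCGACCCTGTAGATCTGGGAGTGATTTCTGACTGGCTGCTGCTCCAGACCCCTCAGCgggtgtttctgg

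The Ly-6C antigen is encoded by Ly6c1 and Ly6c2, whose coding sequences share a run of 188 bases. It is shown for the same reason, with the shared run in capitals.
Ly6c2: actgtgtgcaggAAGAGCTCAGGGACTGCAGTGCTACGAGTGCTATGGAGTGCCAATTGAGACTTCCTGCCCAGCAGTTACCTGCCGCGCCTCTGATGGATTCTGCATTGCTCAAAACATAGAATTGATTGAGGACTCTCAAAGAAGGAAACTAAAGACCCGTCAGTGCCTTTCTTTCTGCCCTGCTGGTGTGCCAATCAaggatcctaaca
Ly6c1: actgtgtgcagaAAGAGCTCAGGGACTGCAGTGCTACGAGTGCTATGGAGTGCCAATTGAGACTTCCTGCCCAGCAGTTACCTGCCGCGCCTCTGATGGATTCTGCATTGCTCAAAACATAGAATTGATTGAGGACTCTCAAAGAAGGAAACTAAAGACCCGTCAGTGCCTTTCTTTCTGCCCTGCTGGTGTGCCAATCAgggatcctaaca
Despite this overlap the reads were assigned almost wholly to Ly6c2: Ly6c1 did not exceed 1.13 FPKM in any library, whereas Ly6c2 reached 1235.

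**Figure D1:**
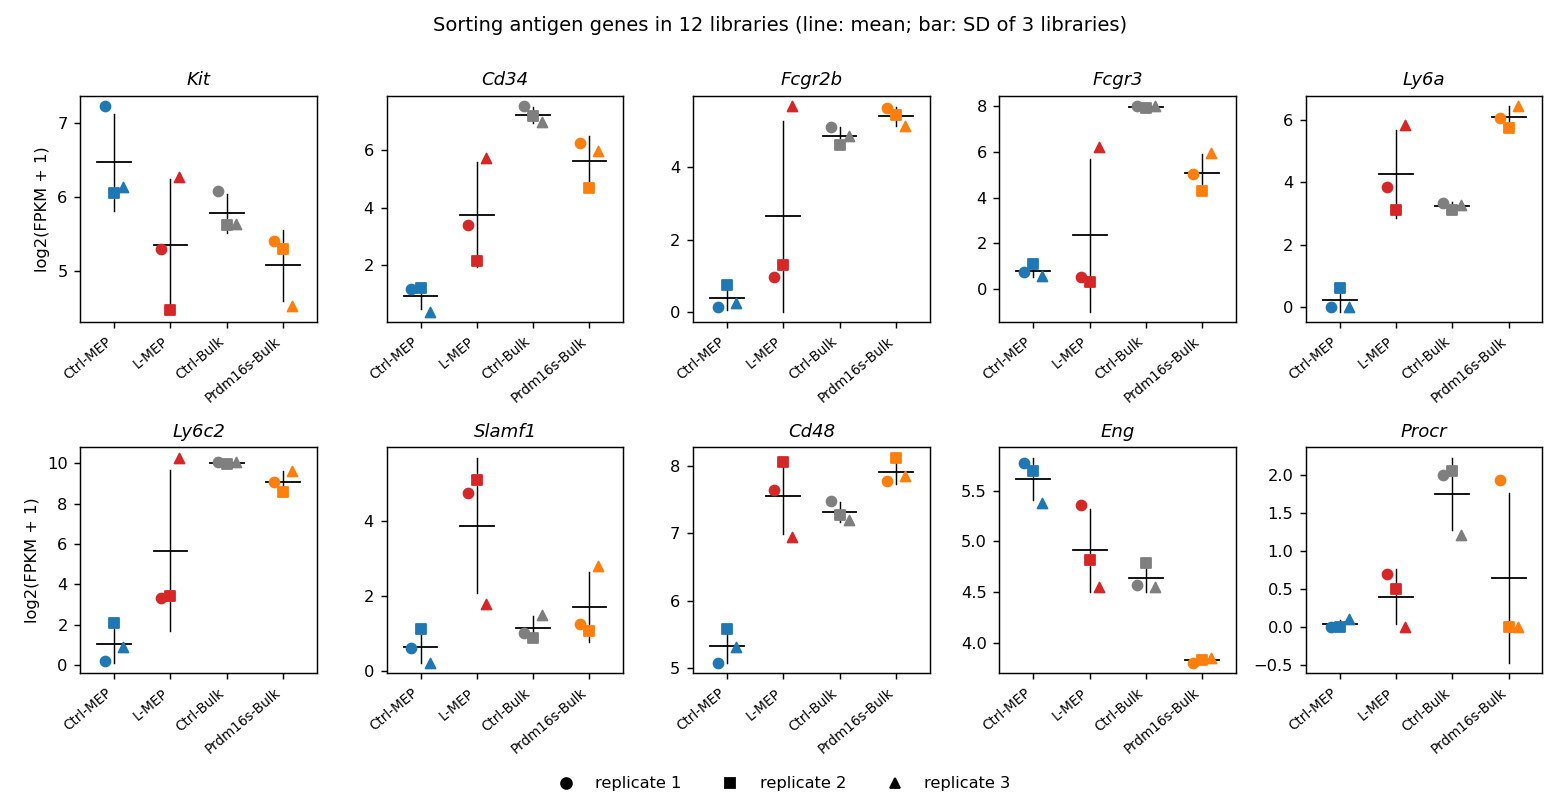
Expression of the 10 sorting antigen genes as log2(FPKM + 1) in the 12 libraries, 1 panel a gene with its own vertical range; points are libraries (shape, replicate), lines the group mean and bars the SD of 3 libraries. L-MEP replicate 3 (red triangle) lies away from the other L-MEP libraries for Fcgr2b, Fcgr3, Ly6c2 and Slamf1, and Ctrl-MEP is at or near 0 for Ly6a and Procr.

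Differences were tested with limma on log2(FPKM + 1) across 11462 genes, in a fit of all 12 libraries, and called at a Benjamini-Hochberg adjusted p below 0.05; adding 1 understates the change of low genes. The control MEPs, compared with the wild-type marrow from which such cells are sorted, were low in the RNA of the antigens that the classical gate excludes. Of the 10 members 7 were lower in Ctrl-MEP than in Ctrl-Bulk and 1, Eng, was higher, where 15.0% of all tested genes were called, 12.3% lower and 2.63% higher. Without L-MEP replicate 3, which enters only through the shared estimate of spread, the counts were again 7 and 1, against 24.5% of all genes, 17.1% lower and 7.41% higher. Kit and Slamf1 did not pass. Where the libraries of compared groups are said below not to overlap, 46.4% of all tested genes did not for Ctrl-MEP against Ctrl-Bulk, 40.8% for L-MEP against Ctrl-MEP, 37.2% for Prdm16s-Bulk against Ctrl-Bulk and 15.9% for L-MEP against Prdm16s-Bulk.

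Kit, the stem cell factor receptor and the positive marker of the gate, stood at 149, 65.7 and 69.5 FPKM in Ctrl-MEP and at 67.0, 48.2 and 48.6 in Ctrl-Bulk. The Ctrl-MEP values lay at the upper end, with 1 of 3 far above the rest, and the groups overlapped. The log2 difference was 0.70 ± 0.44 (SE; 95% interval -0.25 to 1.65; limma adjusted p = 0.342), and its adjusted p was 0.171 without L-MEP replicate 3. Among 6570 genes at a mean of at least 10 FPKM, those whose level followed Kit most closely over the 12 libraries were Elac2 (Pearson r = 0.966), Tsr1 (0.951) and Pacsin2 (0.949). These points share library and depth, and the values are a description.

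In the leukemic MEPs Kit stood at 38.5, 21.3 and 76.1 FPKM, and in Prdm16s-Bulk at 41.3, 38.5 and 22.1. L-MEP replicates 1 and 2 were below every Ctrl-MEP library, and replicate 3, with 256 Kit reads, was above 2 of them. The log2 difference between L-MEP and Ctrl-MEP was -1.13 ± 0.44 and did not pass (limma adjusted p = 0.0778), while without L-MEP replicate 3 the difference was -1.59 ± 0.38 and passed (limma adjusted p = 0.00911). Between L-MEP and Prdm16s-Bulk it was 0.27 ± 0.44 (limma adjusted p = 0.789) and, without that library, -0.19 ± 0.38 (adjusted p = 0.805). Prdm16s-Bulk was below every Ctrl-Bulk library but did not pass, at -0.70 ± 0.44 (limma adjusted p = 0.361, and 0.182 without L-MEP replicate 3). Kit also marks mast cells, and the summed level of 6 basophil and mast cell markers was 313 to 680 FPKM in L-MEP against 6.09 to 9.24 in Ctrl-MEP. The markers behind these sums differed between libraries. In L-MEP replicates 1 and 2 most of the sum was Fcer1a (265 and 590 FPKM), with Prss34 at 0 and Hdc at 1.24 and 1.99. In replicate 3 Mcpt8 stood at 145, Prss34 at 84.0, Hdc at 32.1 and Fcer1a at 18.0. The part of such cells in the result was not tested.

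Ly6a encodes Sca-1, an interferon-responsive antigen whose absence is required of a myeloid progenitor. In Ctrl-MEP it stood at 0, 0.537 and 0 FPKM; the counts of 0 allow up to 0.321 and 0.418 FPKM (3 reads, counting error only). In L-MEP it stood at 13.4, 7.69 and 56.8 FPKM, from 149, 63 and 34 reads. Every L-MEP library thus lay above every Ctrl-MEP library, and replicates 1 and 2 carried this RNA too. Ly6a was higher in L-MEP than in Ctrl-MEP by 4.07 ± 0.53 on the log2 scale (limma adjusted p = 0.000204), and by 3.27 ± 0.31 without L-MEP replicate 3 (adjusted p = 1.12e-05).

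The marrow moved the same way for Ly6a. Ctrl-Bulk stood at 9.09, 7.65 and 8.62 FPKM and Prdm16s-Bulk at 66.0, 52.7 and 86.1, with no overlap, and the log2 difference was 2.85 ± 0.53 (limma adjusted p = 0.00567; 2.98e-05 without L-MEP replicate 3). Both comparisons kept their call under each of the 19 alternatives run. The increase in MEPs minus that in marrow was 1.22 ± 0.75 and did not pass (limma adjusted p = 0.445), and without L-MEP replicate 3 it was 0.43 ± 0.42 (adjusted p = 0.628). Ctrl-MEP minus Ctrl-Bulk was -3.03 ± 0.53 (limma adjusted p = 0.00194; 4.19e-06 without L-MEP replicate 3), and L-MEP replicates 1 and 2 lay at about the level of wild-type marrow and below every Prdm16s-Bulk library. L-MEP against Prdm16s-Bulk gave -1.81 ± 0.53 (limma adjusted p = 0.0868) and, without L-MEP replicate 3, -2.60 ± 0.31 (adjusted p = 7.93e-05).

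Cd34, a sialomucin of stem cells and early progenitors, was far lower in control MEPs than in marrow. It stood at 1.27, 1.33 and 0.320 FPKM in Ctrl-MEP and at 182, 142 and 125 in Ctrl-Bulk, a log2 difference of -6.28 ± 0.71 (limma adjusted p = 8.13e-05; 2.49e-07 without L-MEP replicate 3). L-MEP held 9.53, 3.41 and 51.7 FPKM, and all 3 were above every Ctrl-MEP library. The log2 difference was 2.82 ± 0.71 (limma adjusted p = 0.0119) and, without L-MEP replicate 3, 1.83 ± 0.47 (adjusted p = 0.0125). The adjusted p rose to 0.0517 without Ctrl-MEP replicate 3 and to 0.0746 when only these groups were fitted.

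In the marrow the Cd34 difference had the other sign: Prdm16s-Bulk stood at 74.4, 24.4 and 61.7 FPKM, below every Ctrl-Bulk library, at -1.59 ± 0.71 (limma adjusted p = 0.192, and 0.0204 without L-MEP replicate 3). The difference in MEPs minus that in marrow was 4.41 ± 0.997 (limma adjusted p = 0.0259) and, without that library, 3.42 ± 0.63 (adjusted p = 0.00463). L-MEP minus Prdm16s-Bulk was -1.87 ± 0.71 (limma adjusted p = 0.173) and -2.86 ± 0.47 without L-MEP replicate 3 (adjusted p = 0.00101). Within each library Cd34 amounted to 0.247 and 0.160 of the Kit level in L-MEP replicates 1 and 2, 0.680 in replicate 3 and 0.00460 to 0.0203 in Ctrl-MEP. The genes that followed Cd34 most closely over the 12 libraries were Psap (r = 0.982), Sirpa (0.977) and Retnlg (0.9747).

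Fcgr3 encodes CD16, an activating Fc receptor, and Fcgr2b encodes the inhibitory CD32b; the antibody used in progenitor sorting binds both. Fcgr3 stood at 0.663, 1.11 and 0.479 FPKM in Ctrl-MEP and at 254, 246 and 255 in Ctrl-Bulk. L-MEP held 0.431, 0.252 and 72.4 FPKM, from 7, 3 and 63 reads. Replicates 1 and 2 were below every Ctrl-MEP library and replicate 3 was far above them all, so the groups overlapped. The log2 difference was 1.55 ± 1.15 (limma adjusted p = 0.345) with all libraries and -0.37 ± 0.38 (adjusted p = 0.522) without L-MEP replicate 3, which alone set its sign.

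Against marrow, the log2 difference of Fcgr3 in Ctrl-MEP was -7.19 ± 1.15 (limma adjusted p = 0.00101; 1.42e-08 without L-MEP replicate 3). L-MEP minus Prdm16s-Bulk was -2.75 ± 1.15 (limma adjusted p = 0.219) and -4.67 ± 0.38 without L-MEP replicate 3 (adjusted p = 2.85e-06). Prdm16s-Bulk stood at 32.1, 18.4 and 60.8 FPKM, and every library was below every Ctrl-Bulk library. That difference, -2.89, had an SE of 1.15 and did not pass with all libraries (limma adjusted p = 0.149), and it had an SE of 0.34 without L-MEP replicate 3 (adjusted p = 0.000119). The genes nearest to Fcgr3 over the 12 libraries were C5ar1 (r = 0.996), Pilrb2 (0.994) and Lpcat2 (0.992).

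Fcgr2b stood at 0.110, 0.692 and 0.192 FPKM in Ctrl-MEP and at 0.955, 1.47 and 49.97 in L-MEP. The L-MEP libraries were all above Ctrl-MEP, but replicates 1 and 2 by little and replicate 3 by far. The difference did not pass with all libraries (2.26 ± 0.90, limma adjusted p = 0.086) or without L-MEP replicate 3 (0.75 ± 0.28, adjusted p = 0.0693). It did pass under 3 of 19 alternatives, with a lowest limma adjusted p of 0.0275. In marrow Fcgr2b did not follow Fcgr3: it stood at 33.0, 23.3 and 27.7 FPKM in Ctrl-Bulk and at 48.4, 42.3 and 33.7 in Prdm16s-Bulk, 0.55 ± 0.90 higher in value (limma adjusted p = 0.766; 0.157 without L-MEP replicate 3). The ratio of Fcgr3 to Fcgr2b within a library was 7.69, 10.6 and 9.20 in Ctrl-Bulk and 0.665, 0.436 and 1.81 in Prdm16s-Bulk. Ctrl-MEP was lower than Ctrl-Bulk (-4.46 ± 0.90, limma adjusted p = 0.00485; 5.78e-08 without L-MEP replicate 3). L-MEP minus Prdm16s-Bulk was -2.74 ± 0.90 (limma adjusted p = 0.121) and -4.26 ± 0.28 without L-MEP replicate 3 (adjusted p = 7.06e-07).

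**Figure D2:**
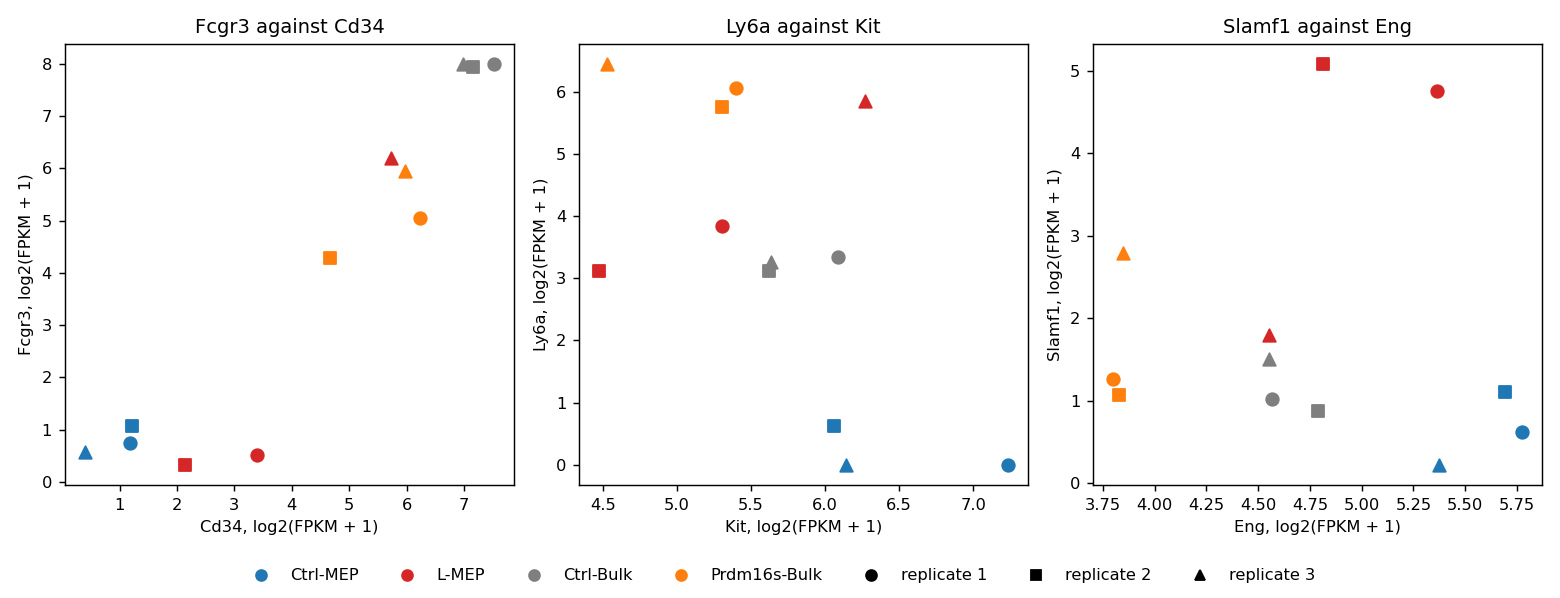
Pairs of sorting antigen RNAs as log2(FPKM + 1), laid out like the plots of a cell sorter: Fcgr3 against Cd34, Ly6a against Kit and Slamf1 against Eng; each point is 1 library, colour is the group and shape the replicate. In the panel of Fcgr3 against Cd34, Ctrl-MEP and L-MEP replicates 1 and 2 lie at the foot of the Fcgr3 axis. In that panel these L-MEP libraries lie further along Cd34, and L-MEP replicate 3 lies beside Prdm16s-Bulk replicate 3.

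Ly6c2 is read chiefly in monocytes and granulocytic cells. It stood at 0.134, 3.19 and 0.872 FPKM in Ctrl-MEP, at 8.97, 9.62 and 1235 in L-MEP, at 1048, 993 and 1048 in Ctrl-Bulk and at 542, 378 and 781 in Prdm16s-Bulk. All L-MEP libraries were above Ctrl-MEP, replicates 1 and 2 within a narrow range and replicate 3 above every marrow library. The difference was 4.62 ± 1.37 (limma adjusted p = 0.0271) and 2.31 ± 0.43 without L-MEP replicate 3 (adjusted p = 0.00185). This call was lost under 5 of 19 alternatives, with a limma adjusted p of up to 0.140. Among them, the adjusted p was 0.0918 without Ctrl-MEP replicate 1 and 0.0766 without Ctrl-MEP replicate 3.

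In the remaining comparisons of Ly6c2, Ctrl-MEP was lower than Ctrl-Bulk (-8.96 ± 1.37, limma adjusted p = 0.00073; 8.06e-09 without L-MEP replicate 3). Prdm16s-Bulk lay below every Ctrl-Bulk library but did not pass (-0.92 ± 1.37, limma adjusted p = 0.736; 0.120 without L-MEP replicate 3). L-MEP minus Prdm16s-Bulk was -3.42 ± 1.37 (limma adjusted p = 0.199) and -5.72 ± 0.43 without that library (adjusted p = 1.76e-06). The summed monocyte and macrophage markers were 3.13 to 9.30 FPKM in Ctrl-MEP, 7.46 and 6.46 in L-MEP replicates 1 and 2 and 172 in replicate 3. The granulocytic sums were higher in replicates 1 and 2 as well. Primary granule markers summed to 576 and 811 FPKM against 10.1 to 109 in Ctrl-MEP. Mature neutrophil markers summed to 490 and 1702 against 16.9 to 292. Most of the neutrophil sum there was S100a8, at 348 and 1444 FPKM. Cxcr2 stood at 47.1 and 48.8 FPKM in these libraries against 0.0353 to 0.0459 in Ctrl-MEP. S100a9 and Ltf were also above every Ctrl-MEP library. Camp and Ngp, and Mmp8 in L-MEP replicate 1, lay within the Ctrl-MEP range. Without L-MEP replicate 3, 5 of 5 primary granule markers and 3 of 8 neutrophil markers were called higher (limma). Of all tested genes 15.1% were. The part of such cells in the Ly6c2 result was not tested.

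Slamf1, the SLAM receptor CD150 of stem cells and megakaryocytic progenitors, gave the opposite pattern to the Fc receptors within L-MEP. It stood at 26.0, 32.9 and 2.46 FPKM there, from 984, 914 and 5 reads, against 0.537, 1.15 and 0.164 in Ctrl-MEP. All were above Ctrl-MEP, and replicates 1 and 2 were above every other library of the study. The log2 difference was 3.23 ± 0.73 (limma adjusted p = 0.0071) and 4.27 ± 0.47 without L-MEP replicate 3 (adjusted p = 3.75e-05); the adjusted p was 0.0523 in a fit of these groups alone. Slamf1 was the only member whose RefSeq start (250 bases before it, GRCm38.p6, 9 of 10 members matched) held GATAA or its complement TTATC, the core bound by GATA factors, where 22.6% of 32851 such windows did. The stretch around it (chr1:171766976-171767034, plus strand, no annotated exon) is printed as a description, with the match in capitals; it was picked after the values were seen.
Slamf1: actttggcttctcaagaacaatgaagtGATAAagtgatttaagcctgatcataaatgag
The PU.1 core GAGGAA or TTCCTC was in the windows of Kit, Fcgr3, Eng and Ly6c2, 4 of the 9, and in 23.3% of all windows.

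In marrow Slamf1 was low, at 1.02, 0.827 and 1.83 FPKM in Ctrl-Bulk and 1.40, 1.09 and 5.90 in Prdm16s-Bulk, and these groups overlapped (0.57 ± 0.73, limma adjusted p = 0.686; 0.373 without L-MEP replicate 3). Ctrl-MEP and Ctrl-Bulk overlapped as well (-0.48 ± 0.73, limma adjusted p = 0.732; 0.457 without it). L-MEP minus Prdm16s-Bulk was 2.17 ± 0.73 (limma adjusted p = 0.13) and 3.22 ± 0.47 without L-MEP replicate 3 (adjusted p = 0.000391). The difference in MEPs minus that in marrow was 2.66 ± 1.04 (limma adjusted p = 0.201) with that library and 3.70 ± 0.63 (adjusted p = 0.00282) without it. Of 6 stem cell markers read beside Slamf1, Mecom and Fgd5 were listed at 0 in all 3 L-MEP libraries. In Ctrl-MEP Fgd5 was also at 0, and Mecom stood at 0.205, 0 and 0 FPKM. The 6 summed to 121, 124 and 12.2 FPKM in L-MEP against 14.5 to 17.6 in Ctrl-MEP. Meis1 alone stood at 111 and 121 in L-MEP replicates 1 and 2. In the other direction, Mllt3 stood at 2.81, 2.67 and 1.25 in L-MEP against 8.41 to 8.86 in Ctrl-MEP. Of 4 tested, 1 was higher and 1 lower in L-MEP (limma), where 13.7% and 12.3% of all tested genes were. The part of stem cells in the result was not tested.

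Cd48, the SLAM-family partner whose absence marks stem cells and whose presence marks later progenitors, stood at 32.7, 46.6 and 38.8 FPKM in Ctrl-MEP and at 199, 264 and 122 in L-MEP. Every L-MEP library was above every Ctrl-MEP library, replicate 3 included. The log2 difference was 2.22 ± 0.27 (limma adjusted p = 9.86e-05) and 2.53 ± 0.21 without L-MEP replicate 3 (adjusted p = 3.93e-06), and it passed under each of the 19 alternatives run. In L-MEP replicates 1 and 2 Slamf1 and Cd48 RNA were thus both higher than in Ctrl-MEP. Ctrl-Bulk stood at 177, 153 and 145 FPKM and Prdm16s-Bulk at 218, 277 and 228, again with no overlap, and this difference of 0.60 ± 0.27 did not pass (limma adjusted p = 0.192; 0.0423 without L-MEP replicate 3).

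For Cd48, the difference in MEPs minus that in marrow was 1.62 ± 0.38 (limma adjusted p = 0.029) and 1.93 ± 0.28 without L-MEP replicate 3 (adjusted p = 0.00103). Ctrl-MEP was lower than Ctrl-Bulk (-1.99 ± 0.27, limma adjusted p = 0.000287; 5.28e-06 without L-MEP replicate 3). L-MEP and Prdm16s-Bulk overlapped, at -0.37 ± 0.27 (limma adjusted p = 0.498; 95% interval -0.95 to 0.21), and -0.06 ± 0.21 without L-MEP replicate 3 (adjusted p = 0.888).

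Eng, the transforming growth factor beta co-receptor endoglin, was higher in sorted MEPs than in marrow among control and among Prdm16s cells. It stood at 53.7, 50.8 and 40.5 FPKM in Ctrl-MEP, 40.1, 27.2 and 22.5 in L-MEP, 22.7, 26.6 and 22.4 in Ctrl-Bulk and 12.9, 13.2 and 13.4 in Prdm16s-Bulk. Prdm16s-Bulk was below every other library, and L-MEP was below Ctrl-MEP with neighbouring ends at 40.1 and 40.5 FPKM. Ctrl-MEP was higher than Ctrl-Bulk by 0.98 ± 0.23 (limma adjusted p = 0.011; 0.00241 without L-MEP replicate 3; 0.0545 and 0.054 without Ctrl-Bulk replicate 1 or 3). L-MEP was higher than Prdm16s-Bulk by 1.08 ± 0.23 (limma adjusted p = 0.029) and by 1.26 ± 0.22 without L-MEP replicate 3 (adjusted p = 0.00126).

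Eng was called lower in each Prdm16s group than in its control. L-MEP minus Ctrl-MEP was -0.70 ± 0.23 (limma adjusted p = 0.0387), and without L-MEP replicate 3 it was -0.53 ± 0.22 and did not pass (adjusted p = 0.0921). Prdm16s-Bulk minus Ctrl-Bulk was -0.81 ± 0.23 (limma adjusted p = 0.0453; 0.0119 without L-MEP replicate 3). Each of these calls lay near the threshold and was lost under 12 of 19 alternatives, with adjusted p between 0.0118 and 0.127 in MEPs and between 0.0119 and 0.190 in marrow; L-MEP against Prdm16s-Bulk was lost under 10 of 19, among them leaving out any Ctrl-Bulk or Prdm16s-Bulk library, Ctrl-MEP replicate 2 or L-MEP replicates 1 or 2 (adjusted p 0.0504 to 0.117). In MEPs the libraries whose removal ended the call were each Ctrl-MEP and each Ctrl-Bulk library, L-MEP replicates 2 and 3 and Prdm16s-Bulk replicate 1; in marrow they were each library of Ctrl-MEP, Ctrl-Bulk and Prdm16s-Bulk and L-MEP replicate 2. The genes nearest to Eng over the 12 libraries were Limd1 (r = 0.970), Ipo4 (0.967) and Rae1 (0.958).

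Procr, the endothelial protein C receptor of the most primitive stem cells, was near the detection limit in sorted cells. It stood at 0, 0 and 0.0801 FPKM in Ctrl-MEP, the last from 1 read, and at 0.618, 0.421 and 0 in L-MEP, where the 0 of replicate 3 allows up to 2.88 FPKM. Ctrl-Bulk held 2.99, 3.16 and 1.31 FPKM and Prdm16s-Bulk 2.81, 0 and 0, so only Ctrl-Bulk had the RNA in all libraries at above 1 FPKM. Ctrl-MEP was lower than Ctrl-Bulk (-1.72 ± 0.47, limma adjusted p = 0.0267; 0.0146 without L-MEP replicate 3), a call lost without any of the Ctrl-MEP libraries or Ctrl-Bulk replicates 1 or 2 (adjusted p 0.0749 to 0.114). The other Procr comparisons did not pass: L-MEP against Ctrl-MEP was 0.36 ± 0.47 (limma adjusted p = 0.605; 0.459 without L-MEP replicate 3) and Prdm16s-Bulk against Ctrl-Bulk was -1.11 ± 0.47 (limma adjusted p = 0.17; 0.109 without L-MEP replicate 3), which passed without Prdm16s-Bulk replicate 1 (adjusted p = 0.0115).

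**Figure D3:**
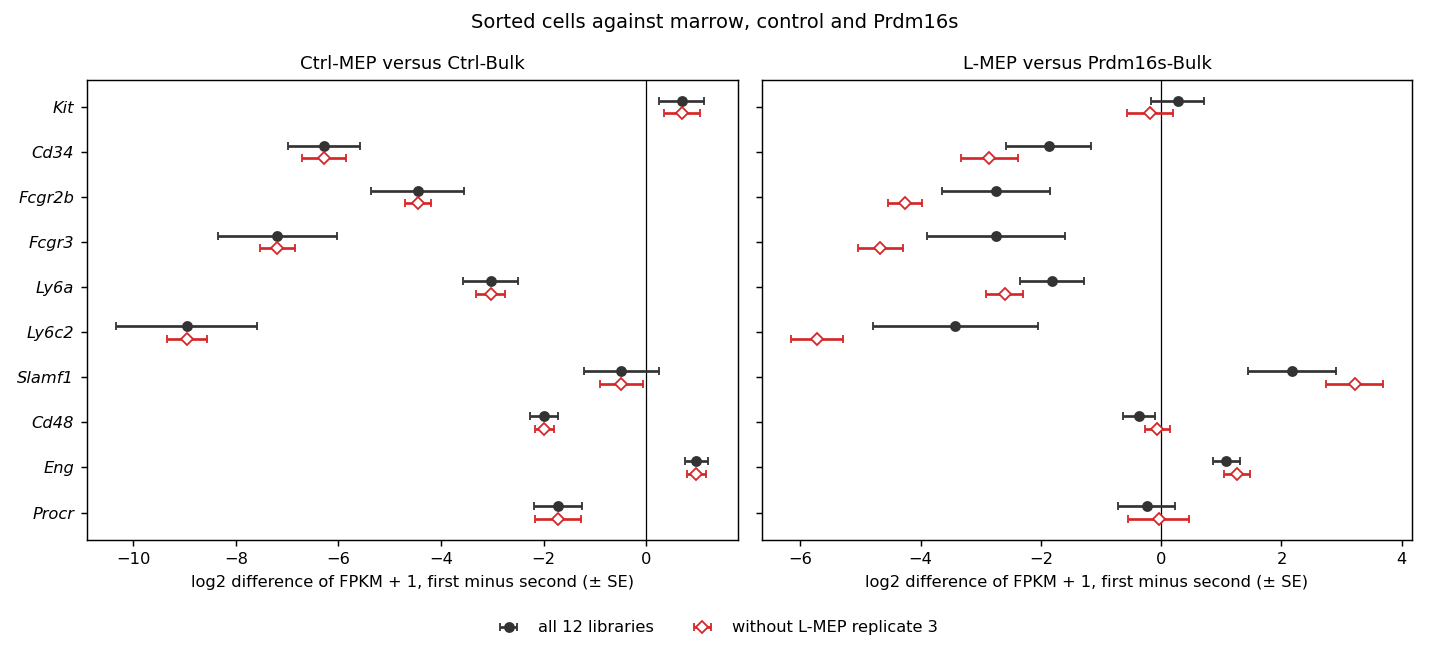
Log2 differences of FPKM + 1 with SE for the 10 members, Ctrl-MEP minus Ctrl-Bulk on the left and L-MEP minus Prdm16s-Bulk on the right; filled circles use all 12 libraries and open diamonds leave out L-MEP replicate 3. Eng lies above 0 in both panels, and the lower values of Cd34, Fcgr2b, Fcgr3, Ly6a and Ly6c2 on the right lie further from 0 without that library.

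Over the members together, L-MEP against Ctrl-MEP gave 5 higher (Cd34, Ly6a, Slamf1, Cd48 and Ly6c2) and 1 lower (Eng), where 26.0% of all tested genes were called, 13.7% higher and 12.3% lower. The median log2 difference of the 10 was 2.24 against 0.02 over all genes tested. Without L-MEP replicate 3 there were again 5 higher and 1 lower, the lower member then being Kit and not Eng, against 27.4% of all genes, 15.1% higher and 12.3% lower, and the median was 1.29. In the fit of these groups alone 2 members, Ly6a and Cd48, passed, and 1698 of 11462 genes in place of 2976. Prdm16s-Bulk against Ctrl-Bulk gave 1 higher (Ly6a) and 1 lower (Eng), where 9.05% of genes were called, 3.02% higher and 6.03% lower. Without L-MEP replicate 3 it gave 2 higher (Ly6a and Cd48) and 3 lower (Cd34, Fcgr3 and Eng), against 18.7% of genes, 8.28% higher and 10.5% lower. In a fit of the marrow groups alone 6 members passed, and with voom on the recovered reads 4 did, while the calls among all 11462 genes went from 1037 to 1769 and 1907.

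The sorted leukemic cells against leukemic marrow gave 1 member called, Eng, where 3.05% of genes were called, 0.977% higher and 2.08% lower. Without L-MEP replicate 3, 2 were higher (Slamf1 and Eng) and 5 lower (Cd34, Fcgr2b, Fcgr3, Ly6a and Ly6c2), against 15.5% of genes, 5.53% higher and 9.99% lower; voom on the recovered reads called 7 members with all libraries, and 1780 of 11462 genes in place of 350. The difference in MEPs minus that in marrow was called for Cd34 and Cd48, where 4.89% of genes were called, 4.52% higher and 0.366% lower; without L-MEP replicate 3 it was called for 5 members, Fcgr3 (2.52), Slamf1 and Ly6c2 (3.23) in addition, against 9.48% of genes, 7.62% higher and 1.86% lower. All 5 comparisons draw on the same 4 groups and share libraries, so the calls of a member in several of them are not independent.

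**Figure D4:**
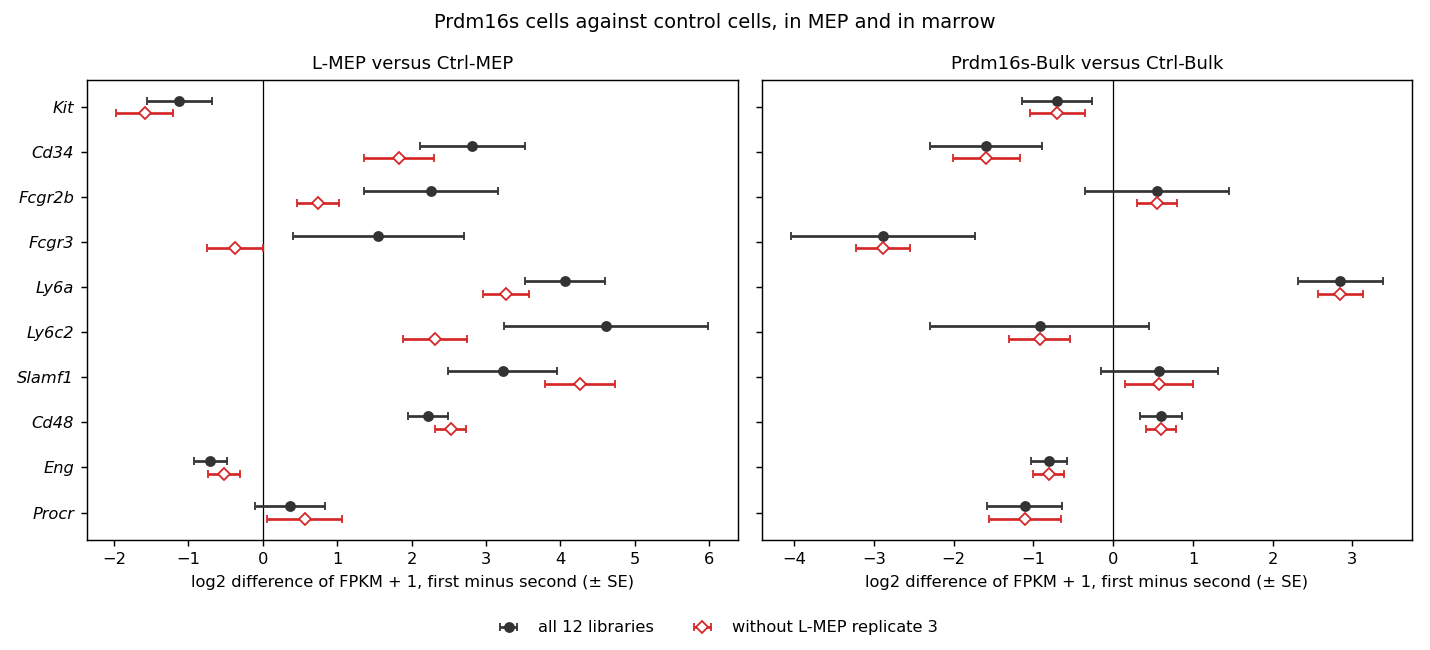
Log2 differences of FPKM + 1 with SE for the 10 members, L-MEP minus Ctrl-MEP on the left and Prdm16s-Bulk minus Ctrl-Bulk on the right; filled circles use all 12 libraries and open diamonds leave out L-MEP replicate 3, which alters only the SE on the right. Ly6a is above 0 and Eng below 0 in both panels, and Fcgr3 changes sign on the left when the library is left out.

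Read as a gate, L-MEP replicates 1 and 2 thus had Kit RNA below that of control MEPs, Fcgr3 RNA as low as theirs or lower, a Cd34 level between theirs and that of marrow, and Ly6a RNA at the level of wild-type marrow. Slamf1 and Cd48 were both above control MEPs in these libraries. The same libraries also differed from every Ctrl-MEP library in Xist and Ddx3y, as given above. L-MEP replicate 3 had Cd34, Fcgr2b, Fcgr3, Ly6a and Ly6c2 above the lowest Prdm16s-Bulk library, with Kit at 76.1 FPKM. The lineage antigens, a list of 13 genes, summed to 30.9 and 43.8 FPKM in L-MEP replicates 1 and 2 and 266 in replicate 3. They summed to 97.7 to 128 in Ctrl-MEP and 218 to 271 in Ctrl-Bulk. Only 2 of the 13 reached 1 FPKM in each Ctrl-MEP library and in L-MEP replicates 1 and 2. These sums therefore do not give the direction of the whole list. Ptprc, 1 of the 13, was higher in L-MEP than in Ctrl-MEP, but it encodes CD45, a pan-leukocyte antigen that does not mark a mature lineage.

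Other antigens used to sort progenitors were read beside the members. Here and in the lists that follow, counts stand beside the 13.7% of all tested genes that were higher and the 12.3% that were lower in L-MEP than in Ctrl-MEP. Of 15 tested, 4 were higher and 3 lower, with a median of 0.58 on the log2 scale, and the counts were the same without L-MEP replicate 3 with a median of 0.07. Cd9, a tetraspanin of megakaryocytes and mast cells, rose from 12.1, 30.7 and 14.6 FPKM to 597, 687 and 159 (4.44 ± 0.49, limma adjusted p = 5.5e-05). Itga2b (CD41), the platelet integrin, rose from 1.05, 3.44 and 0.673 to 47.4, 32.6 and 9.05 (3.36 ± 0.51, limma adjusted p = 0.000611). Cd27, a receptor of the tumour necrosis factor family, rose by 2.28 ± 0.47 (limma adjusted p = 0.00389). Tfrc (CD71), the transferrin receptor of erythroid precursors, fell from 107, 64.6 and 88.2 to 19.2, 27.02 and 25.7 (-1.80 ± 0.25, limma adjusted p = 0.00032). For each of these 4 genes the L-MEP libraries did not overlap Ctrl-MEP, and each passed without L-MEP replicate 3.

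In the lineage list Ptprc rose by 1.59 ± 0.31 (limma adjusted p = 0.00276). It encodes the pan-leukocyte antigen CD45, so its RNA does not mark a mature lineage. Of 6 further SLAM-family genes 1 rose, Cd84, a receptor of the same cluster, from 3.55, 3.29 and 2.57 to 20.2, 31.9 and 17.9 FPKM (2.52 ± 0.26, limma adjusted p = 3.68e-05); the neighbour Ly9 gave -0.88 and did not pass (adjusted p = 0.144). Of 5 further Ly6 genes 1 rose, Ly6e, by 1.37 ± 0.35 (limma adjusted p = 0.0138). Of 6 further Fc receptors and partners 2 rose: Fcer1g, the signalling chain shared by Fcgr3, from 2.77, 11.2 and 5.52 to 64.7, 24.9 and 379 FPKM (3.69 ± 0.73, limma adjusted p = 0.00321), and the kinase Syk, by 1.88 ± 0.33 (limma adjusted p = 0.00161). L-MEP replicates 1 and 2 therefore held more Fcer1g RNA than any Ctrl-MEP library while their Fcgr3 values, from 7 and 3 reads, were lower than in any. Each gene said here to have risen also passed without L-MEP replicate 3.

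Of 11 genes of KIT signalling 5 rose in L-MEP against Ctrl-MEP and none fell (limma), where 13.7% of all tested genes rose and 12.3% fell, with a median of 0.97 on the log2 scale against 0.02 over all genes, and without L-MEP replicate 3 the count was again 5 with a median of 0.18. Those with the smallest p were the kinase Lyn (1.84 ± 0.23, limma adjusted p = 0.000155), the phosphatase Ptpn6 (1.37 ± 0.24, adjusted p = 0.00139), the adaptor Gab2 (1.47 ± 0.35, adjusted p = 0.00953) and the lipid kinase subunit Pik3cd (1.54 ± 0.41, adjusted p = 0.0154). Of 8 partners of endoglin and EPCR 1 rose, Smad1, a mediator of bone morphogenetic protein signals, from 0.0629, 0.131 and 0.136 FPKM to 3.51, 1.98 and 2.94 (1.76 ± 0.44, limma adjusted p = 0.0112), and without L-MEP replicate 3 there were 3. The 5 named here passed without that library as well. The counts of 1 gene in the SLAM, Ly6 and endoglin lists lie near the share of all genes called. All the lists exclude the 10 members.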

How the data were processed

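RNA was extracted from sorted cells, and libraries were made by Smart-seq2 with Nextera XT and sequenced on a HiSeq2500, per the labels' protocols. The authors deposited 1 table of FPKM for all 12 libraries. The submitters' processing notes name CASAVA, bcl2fastq, STAR 2.5.3a, DESeq2 1.18.1 and the mm10 build; the sources used here name no counter or annotation. The low FPKM values are whole multiples of 1 read, which gave the reads behind all 16728 genes above 0; the other 7379 were at 0 in every library.

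The 11462 genes that reached 1 FPKM in 3 or more libraries were tested on log2(FPKM + 1) with limma 3.58.1 (R 4.3.3; trend, all 4 groups, 8 residual degrees of freedom) and Benjamini-Hochberg adjustment, after a check on simulated data. Replicates are samples of a group. As a check on whether replicate numbers pair samples, deviations were correlated between same-number libraries of different groups. No comparison had every such correlation over 0.1, the level used, and the main fit did not pair samples. The values were 0.0862, 0.215 and 0.149 for L-MEP with Prdm16s-Bulk and 0.497, 0.285 and 0.0734 for Ctrl-MEP with Ctrl-Bulk. Every other pair of groups had a negative value. Xist and Ddx3y split both Prdm16s groups by replicate number in the same way. Pairing beyond this was not tested. Named were all 10 members, up to 4 genes of each other list with the smallest p in L-MEP against Ctrl-MEP, Gata1, Klf1, Mpo and Prdm16 as label checks and the 3 genes most correlated with each of Kit, Cd34, Fcgr3 and Eng. Members and lists were chosen with earlier results of these data known. Alternatives were another pseudocount (0.1), other filters, equal totals, only the groups compared, a replicate block, voom on the recovered reads and leaving out each library. All 10 members matched RefSeq by gene ID, and 9 had a RefSeq promoter window (GRCm38.p6); motifs were searched on both strands. The 95% intervals of log2 differences come from limma and reflect the spread between libraries. Limits at 0 cover counting error only. The result of 1 gene that the naming rule covers is not reported here.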

Additional observations from a re-analysis of the deposited data

Results flagged for a closer look

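For Cd34 the log2 difference between Prdm16s and control cells differed between the sorted MEPs and marrow: it was 4.41 larger in MEPs, by limma's interaction term. All L-MEP libraries lay above all Ctrl-MEP libraries while all Prdm16s-Bulk libraries lay below all Ctrl-Bulk libraries. The call was lost under 8 of 18 alternatives, among them leaving out any Ctrl-MEP or Ctrl-Bulk library or Prdm16s-Bulk replicate 2 (adjusted p 0.0526 to 0.0848).

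For Cd48 the same term was 1.62, with higher values in the Prdm16s group in MEPs and in marrow alike. It too was lost under 8 of 18 alternatives: without Ctrl-MEP replicates 1 or 3, any Ctrl-Bulk library, L-MEP replicate 1 or Prdm16s-Bulk replicates 1 or 3 (adjusted p 0.0563 to 0.0981).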

How the results depend on the processing

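Depth limits the members most in L-MEP replicate 3, where Slamf1 rests on 5 reads, and at the low counts of Fcgr3 and Procr. The number of members called in L-MEP against Ctrl-MEP, 6 in all, was 2 with only the groups compared and 3 to 6 when 1 library was left out. In Prdm16s-Bulk against Ctrl-Bulk, 2 became 1 with the filter at 6 libraries, 6 with only the groups compared, 4 with voom and 1 to 5 when 1 library was left out; with the replicate block it was 1, since Eng then had an adjusted p of 0.0553, and the block changed no other call of a member. In L-MEP against Prdm16s-Bulk, 1 became 0 with only the groups compared (0 of 11462 genes, at the same log2 differences), 7 with voom and 0 to 7 when 1 library was left out. For the difference in MEPs minus that in marrow, 2 became 1 with no filter and 0 to 5 when 1 library was left out. Signs turned for Cd48 in L-MEP against Prdm16s-Bulk with equal totals (0.072), for Procr there with pseudocount 0.1 (0.12), with voom (0.94) and without Prdm16s-Bulk replicate 1 (0.40; -0.56 to 0.40 when 1 library was left out), for Kit there without L-MEP replicate 3 (-0.19) and without Prdm16s-Bulk replicate 3 (-0.00218; -0.19 to 0.71), for Fcgr3 in L-MEP against Ctrl-MEP without L-MEP replicate 3 (-0.37; -0.37 to 2.57), and in the difference of differences for Eng without Ctrl-MEP replicate 3 (-0.015) or L-MEP replicate 1 (-0.12; -0.12 to 0.28) and for Kit without L-MEP replicate 2 (0.013; -0.88 to 0.013); none of these values passed the test. The cause was not tested. Over all genes, calls went from 2976 to 1698 with only the groups compared in L-MEP against Ctrl-MEP and to 1916 without Ctrl-MEP replicate 3; from 1037 to 1769 and, with voom, 1907 in Prdm16s-Bulk against Ctrl-Bulk (388 to 2126 when 1 library was left out); and from 1716 to 3641 and 2731 in Ctrl-MEP against Ctrl-Bulk (944 to 2780). In L-MEP against Prdm16s-Bulk 350 became 643 with equal totals, 205 with no filter, 225 with pseudocount 0.1, 1780 with voom and 46 to 1760 when 1 library was left out; for the difference of differences 560 became 893 with voom and 213 to 1075. Equal totals moved the median of all genes to 0.37 in L-MEP against Prdm16s-Bulk, where 112 higher and 238 lower became 510 and 133, to -0.25 in Prdm16s-Bulk against Ctrl-Bulk, where 346 and 691 became 195 and 853, to 0.18 in Ctrl-MEP against Ctrl-Bulk, where 302 and 1414 became 594 and 1326, and to 0.25 for the difference of differences.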
